A study of Mus musculus with 8 samples.

Results

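The genes described here are 8 alpha- and beta-tubulin genes of the mouse, the 4 alpha genes Tuba1a, Tuba1b, Tuba1c and Tuba4a and the 4 beta genes Tubb2a, Tubb2b, Tubb5 and Tubb6. They were chosen by name among the alpha- and beta-tubulin genes present in every deposited table of genes, and they are 8 of 10690 genes listed in any of the 3 tables. The rule for the choice used no ratio between libraries, although it was set with earlier results of these data known. Tubb3 and Tubb4b are also in every table and are given beside them. All 8 had at least 1608 reads in each library, so that none depended on a filter on low values. The cells were NIH3T3, an established line of proliferating mouse fibroblasts. NT cells were not treated. AS cells were kept with 250 μM sodium arsenite, an agent that causes oxidative stress, for 1 h. RC4 and RC8 cells were given the same 1 h treatment, washed and left in regular medium for 4 h and 8 h. All 4 conditions used the same cell line and serum-containing medium, and none carried a genetic change named by the labels. Each condition had 1 QuantSeq FWD library, which reads the 3′ ends of poly(A)+ transcripts, and MAAPER had assigned the reads to poly(A) sites (PASs).

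Alpha- and beta-tubulin proteins pair into the heterodimer that polymerizes into microtubules, the filaments that carry cargo, shape the cell and form the mitotic spindle. Mammals have several genes of each class, whose coding sequences are close and whose 3′UTRs are less so. The level of tubulin mRNA is known to be kept in check by the amount of free tubulin, through decay of mRNAs while they are translated. Arsenite reacts with thiols, and tubulin is among the proteins it is known to bind.

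Reads on genes numbered 22.4 M to 23.0 M per library, so a level is given as RPM (reads of a gene per 1000000 reads on genes). A transcript end gives about 1 tag whatever the length of the transcript, so levels of genes were set side by side without scaling to length. The libraries had no replicate, no test across replicates could be run, and intervals cover counting error only, as these reads carry no molecular identifiers and may not each stand for a separate molecule. Hmox1, a heme oxygenase induced by arsenite, was 27.6 RPM in NT, 57.8 in AS, then 888 in RC4 and 101 in RC8, and the heat shock gene Hspa1b was 42.3, 218, 2369 and 90.4 RPM. Both genes were higher than in NT in each treated library. All 8 fibroblast markers fixed as a list (Vim, Col1a1, Col1a2, Col3a1, Fn1, Thy1, Pdgfrb and S100a4) were listed, with summed levels between 8724 RPM in RC8 and 15097 RPM in AS, while 0 of 5 epithelial, 0 of 4 blood and 0 of 5 neuronal markers were listed. Genes under 50 reads do not appear in the tables. Over all genes the median log2 ratio to NT was −0.04 in AS, then −0.30 in RC4 and 0.01 in RC8, so the typical gene had fewer RPM in RC4 than in NT. RPM are shares of the reads of a library, so they give neither the number of cells nor the amount of RNA per cell.

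The 3 closest alpha genes lie near each other on chromosome 15 of the mm9 build. Tuba1b spans 98761856 to 98764996 and Tuba1a spans 98780272 to 98783982, both on the minus strand, and Tuba1c spans 98860322 to 98868536 on the plus strand. Tubb2a (34166170 to 34169877) and Tubb2b (34218877 to 34222223) are both on the minus strand of chromosome 13. Tuba4a lies on chromosome 1 (75211549 to 75215828, minus strand), Tubb5 on chromosome 17 (35970871 to 35975251, minus strand) and Tubb6 on chromosome 18 (67550371 to 67562402, plus strand). The coding sequences of Tuba1a and Tuba1b were 98.3% identical and those of Tubb2a and Tubb2b 96.5%, against 56.4% between Tuba1a and Tubb2a.

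The PASs that MAAPER used for these genes all lay in or just past the last annotated exon, which holds the stop codon. Tubb2a and Tubb5 each had more than 1 listed PAS, as did Tubb2b, and the other 5 genes had 1. Having a single PAS is common here, since 47.0% to 49.4% of all genes had one. The 30 bases that end at each PAS are shown for the 3 genes with a choice of PAS and for Tuba1b and Tuba1c, because they are the sequences beside which the shares of reads below were measured. Capitals mark a polyadenylation hexamer, AATAAA or a variant of it, and lower case alone means that none of the hexamers searched was found.

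Tubb2a, PAS 142 nt from the stop codon, chr13:34166195-34166224, minus strand: atgtaatagtgtgaacctctttcaagatca
Tubb2a, PAS 247 nt from the stop codon, chr13:34166090-34166119, minus strand: tttttttctgaAATAGAaaccatcatggga
Tubb2b, PAS 19 nt from the stop codon, chr13:34219321-34219350, minus strand: atgaggcttgagttccccaggccaagcagg
Tubb2b, PAS 206 nt from the stop codon, chr13:34219134-34219163, minus strand: catcaatgtaacacttgagatctttctgaa
Tubb2b, PAS 414 nt from the stop codon, chr13:34218926-34218955, minus strand: gtatgctattAATATAagttgaaccaaaaa
Tubb5, PAS 142 nt from the stop codon, chr17:35971785-35971814, minus strand: tttctcattgggggtaaatggtgcctggca
Tubb5, PAS 264 nt from the stop codon, chr17:35971663-35971692, minus strand: cctgtgcttcctactggtatcttttttttt
Tubb5, PAS 1061 nt from the stop codon, chr17:35970866-35970895, minus strand: agagccaaaAATAAAtgggaattggaaaaa
Tuba1b, PAS 156 nt from the stop codon, chr15:98761857-98761886, minus strand: tgtctcaaAGTAAAagctttaagaaaagag
Tuba1c, PAS 96 nt from the stop codon, chr15:98868507-98868536, plus strand: aaactgtcAATAAAggtgtttccgttgtaa

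The distal PAS was the one with a hexamer in each of Tubb2a, Tubb2b and Tubb5, and the PASs nearer the stop codon had none. Only the distal PAS of Tubb5 had AATAAA among them. Over the 12 PASs of the tubulin genes outside chromosome 18, 3 had AATAAA, 3 had a variant and 6 had none. Of all 18174 PASs listed for a 3′-most exon, 48.7% had AATAAA or ATTAAA within 30 nt. That share leaves out every other variant, and the 3 variants of the tubulin genes are among those left out. By the same 2 hexamers, 3 of the 12 tubulin PASs had a match. A match is a description of the letters and not a measured signal.

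How far reads can be told apart differs between these genes. Of the 64-base words in the 300 nt before the PAS, 100% were found at 1 place in the genome for Tuba4a, Tubb6 and each PAS of Tubb5. The share was 54.0% for Tuba1a, 32.9% for Tuba1b and 48.1% for Tuba1c, whose words recurred in each other and elsewhere. It was 66.7% and 100% for the proximal and distal PAS of Tubb2a. For Tubb2b it was 44.3%, 67.9% and 49.4% from the PAS nearest the stop codon to the farthest, and 50.6% of the words before the farthest PAS recurred in places other than these 8 genes. Words of 32 bases were less often at 1 place. Their share was 27.9% for Tuba1a, 10.8% for Tuba1b, 26.4% for Tuba1c and 58.7% for the proximal PAS of Tubb2a. For Tubb2b it was 27.1%, 32.3% and 19.7% in the same order of PASs. The values of Tuba1a, Tuba1b, Tuba1c, Tubb2a and Tubb2b are therefore uncertain to the extent that the counting split reads among copies, and how MAAPER treated reads with several places is not given in the sources used here.

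**Figure D1:**
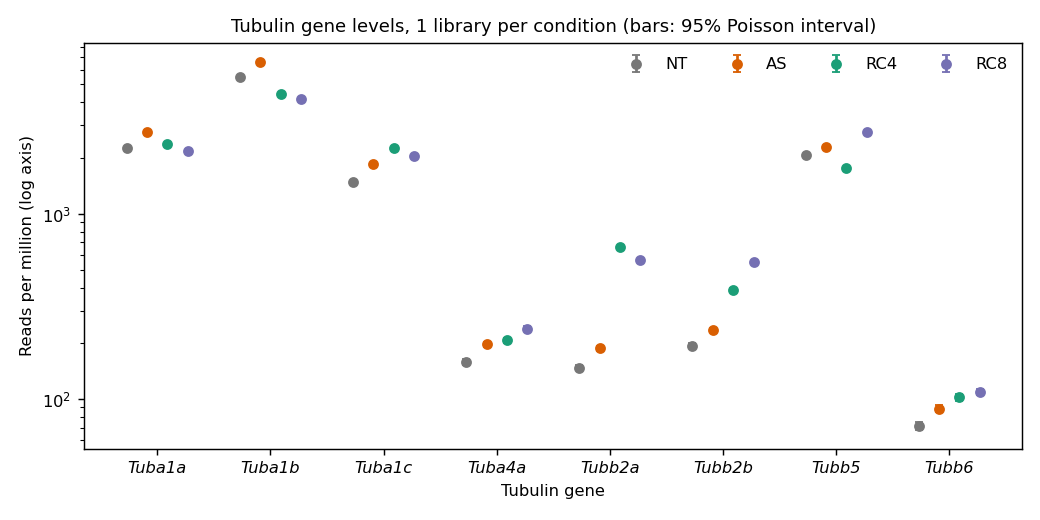
Level of each tubulin gene in RPM on a log axis, with 1 point per library (NT, AS, RC4, RC8) and bars for the 95% Poisson interval, which is mostly smaller than the point. Tuba1b is the highest gene in all 4 libraries, and Tubb2a and Tubb2b are higher in RC4 and RC8 than in NT and AS.

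Tuba1b, the main alpha-tubulin gene of these cells, was 5478 RPM in NT, 6638 in AS, then 4409.5 in RC4 and 4187 in RC8. It was the fifth most read gene of NT and the fourth of AS. AS was thus the highest library and both recovery libraries were below NT. The log2 ratio to NT was 0.28 (counting error 0.01) in AS, then −0.32 (0.01) in RC4 and −0.39 (0.01) in RC8. The RC4 value was −0.01 relative to the median gene, so that the decrease in RPM in RC4 was that of a typical gene, while the RC8 value remained at −0.39 on that scale.

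Tuba1a, an alpha gene best known from developing neurons, was 2275 RPM in NT, 2779 in AS, then 2376 in RC4 and 2188 in RC8. The AS library stood above the other 3, and RC8 was the lowest. The log2 ratios to NT were 0.29, 0.06 and −0.06, each with a counting error of 0.01, and relative to the median gene they were 0.33, 0.36 and −0.06.

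Tuba1c, a further broadly expressed alpha gene, was 1483 RPM in NT, 1851 in AS, then 2254 in RC4 and 2054 in RC8. All 3 treated libraries were above NT and RC4 was the highest. Its log2 ratio to NT was 0.32 in AS, then 0.60 in RC4 and 0.47 in RC8 (counting error 0.01), and the RC4 value is close to the 1.5-fold threshold of 0.585.

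Tuba4a, an alpha gene whose protein is made without the C-terminal tyrosine, was 159 RPM in NT, 197 in AS, then 208 in RC4 and 240.2 in RC8. The 4 levels stood in the order of the time course, although the intervals of AS (191 to 203) and RC4 (202 to 214) overlap. The log2 ratios were 0.31, 0.39 and 0.60, with a counting error of 0.03 each.

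Tubb5, the main beta-tubulin gene here, was 2066 RPM in NT, 2289.7 in AS, then 1775 in RC4 and 2757 in RC8. RC4 was the lowest and RC8 the highest library. The log2 ratio to NT was 0.15 in AS, then −0.22 in RC4 and 0.42 in RC8 (counting error 0.01). The sign in RC4 depended on the scale, since the ratio was 0.08 relative to the median gene.

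Tubb2a, a beta-tubulin gene known for its high level in brain, was 148 RPM in NT (143 to 153), 188 in AS (183 to 194), then 662 in RC4 (652 to 673) and 562 in RC8 (552 to 572). No intervals overlap, and RC4 and RC8 stand far above NT and AS. RC4 was 4.48-fold and RC8 3.81-fold above NT, as log2 ratios 2.16 and 1.93 (counting error 0.03 each), and AS was 1.28-fold above NT. Its ratio was at rank 46 of 10081 genes in RC4 and 25 of 10441 in RC8.

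Tubb2b, the neighbour of Tubb2a and also best known from neurons, was 194 RPM in NT (189 to 200), 236 in AS (229 to 242), then 387 in RC4 (379 to 395) and 549 in RC8 (539 to 558). The levels went up from library to library in the order of time. RC4 was 1.99-fold and RC8 2.82-fold above NT, as log2 ratios 0.99 and 1.497 (counting error 0.03 each). Tubb2a had its highest level in RC4 and Tubb2b in RC8, with RC8 over RC4 at a log2 ratio of −0.24 for Tubb2a and 0.50 for Tubb2b.

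Tubb6, a beta-tubulin gene of low level in these cells, was 71.2 RPM in NT, 88.9 in AS, then 102 in RC4 and 109 in RC8. All 3 treated libraries were above NT, and the intervals of RC4 (97.9 to 106) and RC8 (105 to 113) overlap. The log2 ratios were 0.32, 0.52 and 0.61, with counting errors of 0.05.

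In NT the order of levels was Tuba1b, Tuba1a, Tubb5, Tuba1c, Tubb2b, Tuba4a, Tubb2a and Tubb6, with no overlap of intervals between neighbours. In AS Tuba4a and Tubb2a had overlapping intervals, and in RC8 Tubb2a and Tubb2b did. By RC8 the order had changed among the upper genes, since Tubb5 stood second, above Tuba1a.

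**Figure D2:**
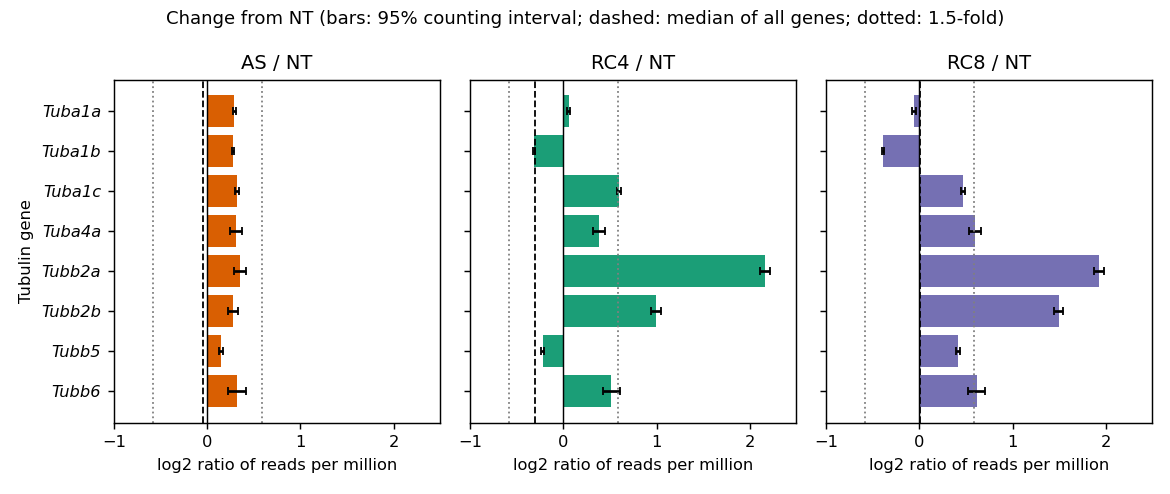
The log2 ratio of RPM to NT for each tubulin gene in AS, RC4 and RC8 (1 library each), with bars for the 95% counting interval, a dashed line at the median of all genes and dotted lines at 1.5-fold. The AS ratios lie between 0.15 and 0.35, whereas those of RC4 and RC8 spread from −0.39 to 2.16.

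Against the 1.5-fold threshold, 0 of the 8 genes were higher in AS (background 1.88% of all listed genes), 3 were higher in RC4 (Tuba1c, Tubb2a and Tubb2b, background 8.04%) and 4 in RC8 (Tuba4a, Tubb2a, Tubb2b and Tubb6, background 11.3%). In no treated library was one of the 8 at least 1.5-fold lower, where the background was 11.4% in AS, then 31.8% in RC4 and 11.9% in RC8. Relative to the median gene, 5 were higher in RC4, Tuba4a and Tubb6 being added (background 15.0%). At 2-fold, 0 genes were higher in AS (background 0.622%), Tubb2a alone in RC4 (3.69%) and Tubb2a and Tubb2b in RC8 (2.97%). The 3 comparisons share the NT library. Of the beta genes outside the 8, Tubb4b was at least 1.5-fold lower in RC4 (log2 ratio −0.98). Tubb3, whose values are uncertain, was higher in RC4 and RC8. Tuba4a and Tubb6 in RC8, at log2 ratios of 0.60 and 0.61, sit just past the threshold of 0.585, and Tubb6 in RC4 (0.52) and Tuba1c in RC8 (0.47) just under it. The calls of Tuba4a and Tubb6 in RC8 were lost with edgeR TMM factors (0.56 and 0.58) and in the second count column alone (0.56 and 0.47). The call of Tuba1c in RC4 was lost with the read numbers of the study (0.576).

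In AS the 8 genes differed little from NT and by similar amounts. All 8 were above NT, by log2 ratios of 0.15 (Tubb5) to 0.35 (Tubb2a) with a median of 0.30, where 43.7% of all genes, and 50.8% of genes in the same range of NT reads, were above NT. The spread widened in recovery, with medians of 0.45 in RC4 and 0.53 in RC8. In those libraries 6 of 8 genes were above NT, against 29.2% and 50.6% of all genes and 35.1% and 42.0% of genes in the same range of NT reads. The 2 genes below NT in RC4 were Tuba1b and Tubb5, although Tubb5 was above NT relative to the median gene. In RC8 they were Tuba1a and Tuba1b.

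The reads of all 8 genes together made up 1.19% of the reads on genes in NT, or 11873 RPM, and this sum was 14267 RPM in AS, then 12173 in RC4 and 12645 in RC8. AS was the highest, at a log2 ratio of 0.27 to NT, while RC4 (0.03) and RC8 (0.09) were close to NT, each with a counting error below 0.01. Scaled by the median ratio, the RC4 value was 0.33 and the AS value 0.33. In RPM, the alpha sum was below NT and the beta sum above NT in both recovery libraries. The alpha log2 ratio in RC4 was −0.03, where the median of all genes was −0.30. Tuba1b was below NT in both, whereas Tuba1c and Tuba4a were above it. The beta log2 ratio in RC4 was 0.24, and 0.06 with Tubb3 and Tubb4b included. The alpha genes together were 9394 RPM in NT, 11465 in AS, then 9247 in RC4 and 8668 in RC8. The beta genes together were 2479, 2802, 2926 and 3976 RPM. Hence alpha over beta was 3.79 (95% interval 3.75 to 3.83) in NT, 4.09 (4.06 to 4.13) in AS, then 3.16 (3.13 to 3.19) in RC4 and 2.18 (2.16 to 2.197) in RC8. With Tubb3 and Tubb4b included among the beta genes, the ratio was 3.002, 3.23, 2.83 and 1.87. The summed reads of Tuba1a, Tuba1b and Tuba1c had log2 ratios to NT of 0.29, −0.03 and −0.13. If each read was counted once, this sum does not depend on how shared reads were split among these 3. Tubb2a and Tubb2b summed had ratios of 0.31, 1.61 and 1.70. Both sums can still depend on how reads shared with other places in the genome were counted, and on whether a shared read was counted more than once.

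Within the alpha genes, Tuba1b held 58.3% of the reads in NT, 57.9% in AS, then 47.7% in RC4 and 48.3% in RC8. Tuba1c held 15.8%, 16.1%, 24.4% and 23.7%. Both shares were nearly the same in NT and AS and differed from them in both recovery libraries. Within the beta genes, Tubb5 held 83.3%, 81.7%, 60.6% and 69.3%, and Tubb2a and Tubb2b together 13.8%, 15.1%, 35.9% and 27.9%. The 95% Wilson intervals of these shares were below 1 percentage point wide. These shares do not depend on the scaling of libraries.

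**Figure D3:**
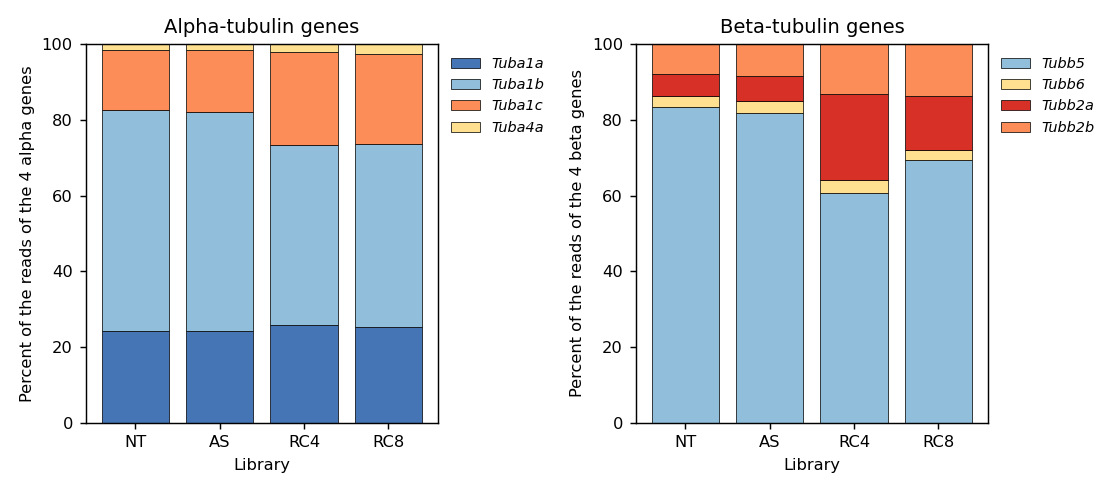
Share of the reads of the 4 alpha genes (left) and of the 4 beta genes (right), in percent, held by each gene in the NT, AS, RC4 and RC8 libraries (1 each). The bars of NT and AS are nearly alike, while in RC4 and RC8 Tuba1c and the Tubb2a and Tubb2b pair take larger shares.

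The use of PASs was compared as the share of a gene's reads at each PAS, and RED is the log2 ratio of distal over proximal reads in the treated library relative to that in NT. The shares are proportions estimated by MAAPER's model. Their intervals, and the counting errors of RED, leave out errors in assigning reads to PASs. A share that moved by at least 10 percentage points was called. Of the 3 tubulin genes with a choice, 1 was called in AS (Tubb2b, background 15.2% of genes with more than 1 PAS), then 0 in RC4 (background 29.0%) and 2 in RC8 (Tubb2b and Tubb5, background 26.9%).

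Tubb2b had 9.35% of its reads at its distal PAS in NT (8.53% to 10.3%), 43.4% in AS (42.1% to 44.7%), then 4.67% in RC4 (4.25% to 5.13%) and 47.5% in RC8 (46.6% to 48.4%). AS and RC8 thus stand together far above NT, and RC4 lies below NT. The distal PAS lies 208 nt beyond the proximal one, which is 206 nt from the stop codon. RED was 2.90 (counting error 0.08) in AS, then −0.99 (0.10) in RC4 and 3.13 (0.08) in RC8. The level at the distal PAS was, in RPM, 18.2 in NT, 102 in AS, then 18.1 in RC4 and 261 in RC8, while at the proximal PAS it was 176, 133, 348 and 288. In AS the distal level was higher and the proximal level lower than in NT, whereas in RC8 both were higher. In RC4 the higher level of Tubb2b lay mostly at the proximal PAS. The mean distance of the PAS from the stop codon was 225 nt in NT, 296 nt in AS, then 206 nt in RC4 and 305 nt in RC8. Among genes with more than 1 PAS in the 3′-most exon, ranked by their largest change in share there, Tubb2b was at rank 3 of 4313 in AS and 12 of 4385 in RC8. The region before the distal PAS is the one in which 50.6% of 64-base words recur elsewhere in the genome, and the part of such reads in the change was not tested.

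The RC4 table lists a further PAS of Tubb2b, 19 nt from the stop codon, that the other tables do not. It held 0.239% of the reads in NT and 5.42% in RC4 (4.96% to 5.91%). Of the 64-base words before it, 55.7% were shared with Tubb2a, which was 4.48-fold higher in RC4, and the part of Tubb2a in the reads at this PAS was not tested.

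Tubb5 used mostly its proximal PAS, 142 nt from the stop codon. That PAS held 61.4% of the reads in NT (61.0% to 61.8%), 70.1% in AS (69.7% to 70.5%), then 68.3% in RC4 (67.8% to 68.8%) and 72.9% in RC8 (72.6% to 73.2%), with 61.6% for NT in the RC8 table. The middle PAS, 122 nt farther, held 33.3%, 25.1%, 28.3% and 21.7%. The proximal share was above NT, and the middle share below it, in each treated library. RED of the middle over the proximal PAS was −0.60 in AS, then −0.39 in RC4 and −0.85 in RC8, each with a counting error of 0.02. The distal PAS, 1061 nt from the stop codon, held 5.32%, 4.80%, 3.37% and 5.37%, so that RC4 and, by 0.52 percentage points (counting error 0.14), AS were below NT there. In RPM the middle PAS was 688 in NT, 575 in AS, then 502 in RC4 and 598 in RC8. It was below NT in all 3, while the proximal PAS was above its NT level of 1268 in AS (1605) and RC8 (2009.5) and, at 1212, below it in RC4.

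Tubb2a had the smallest changes in share of the 3 genes. Its distal PAS, 105 nt past the proximal one, held 11.1% of the reads in NT (10.1% to 12.2%), 8.04% in AS (7.26% to 8.90%), then 8.17% in RC4 (7.75% to 8.62%) and 13.5% in RC8. RED was −0.51 (0.11), −0.49 (0.09) and 0.32 (0.09). The change was at most 3.1 percentage points in any library, below the median largest change of 4.2 (AS) to 6.2 (RC4) over all such genes. The 4.48-fold higher level of Tubb2a in RC4 therefore lay at the same PASs as in NT, with 131 RPM at the proximal one in NT and 608 in RC4.

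**Figure D4:**
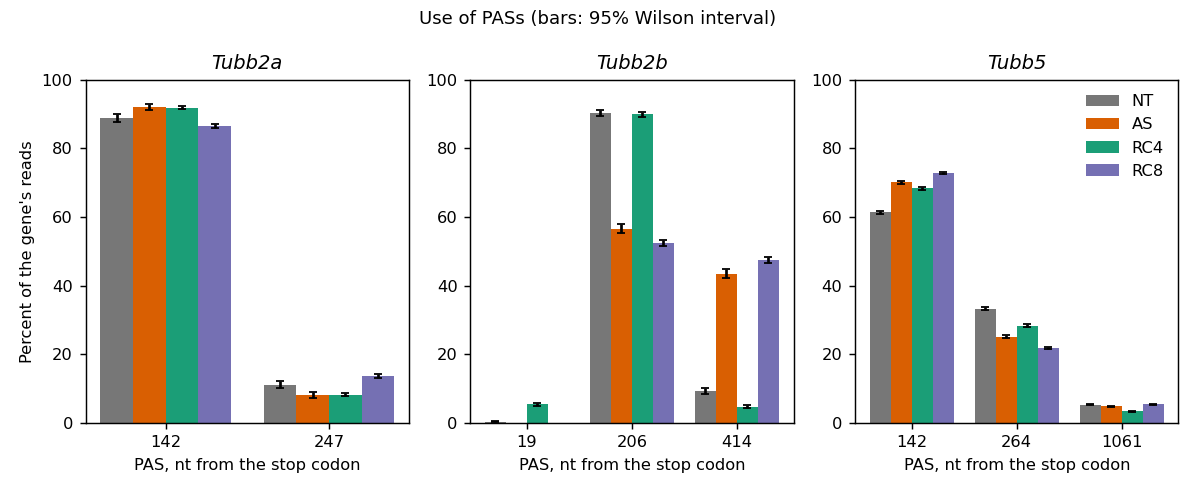
Share of the reads of Tubb2a, Tubb2b and Tubb5 at each PAS, in percent, with PASs named by their distance from the stop codon in nt, 1 bar per library and 95% Wilson intervals. The PAS of Tubb2b at 19 nt is listed in the RC4 table only, and the NT bars of Tubb2b are those of that table. The distal PAS of Tubb2b holds 43.4% in AS and 47.5% in RC8 against 9.32% in NT.

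Of the other 12 genes of the tubulin superfamily looked for, 5 were listed in some table. Tubb3, the beta-tubulin used as a marker of neurons, had few reads, and its values are uncertain because 1 of the 2 count columns is 0 in NT (63 and 0 reads) and in AS (0 and 52). The columns held 107 and 145 reads in RC4 and 159 and 205 in RC8. In the first column alone, an alternative chosen after these values were seen, Tubb3 was 5.58 RPM in NT, 9.35 in RC4 and 13.8 in RC8, with log2 ratios to NT of 0.72 (counting error 0.23) and 1.31 (0.21). The summed columns gave 1.95 and 2.504, so the ratios depend on the column missing in NT, although both recovery libraries were above NT either way. For AS no ratio is given, since NT and AS share no column with reads. Tubb4b, a broadly expressed beta-tubulin gene, was 648 RPM in NT, 740.3 in AS, then 330 in RC4 and 637 in RC8. Its RC4 level stands alone below the other libraries, at a log2 ratio of −0.98 (counting error 0.02). Tubg1, which encodes the gamma-tubulin of the nucleating ring complex, was 57.9, 58.6, 26.6 and 45.7 RPM, with a log2 ratio of −1.12 (0.07) in RC4. Tubd1 and Tube1, the delta- and epsilon-tubulin genes of centrioles, were listed in the AS table only, at 5.49 and 5.31 RPM in NT and 6.51 and 6.68 RPM in AS.

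The other genes of the microtubule system were taken from 5 lists with 83 textbook members, of which 71 (AS and RC4) or 72 (RC8) were listed. In AS, 0 were at least 1.5-fold higher than NT and 14 lower. In RC4, 7 were higher and 22 lower, and in RC8, 8 were higher and 4 lower. The background shares are those given above, 1.88% higher and 11.4% lower in AS, 8.04% higher and 31.8% lower in RC4, and 11.3% higher and 11.9% lower in RC8. The median log2 ratios of the lists together were −0.12, −0.36 and 0.06, near those of all genes, while the medians of the 8 tubulin genes were 0.30, 0.45 and 0.53. Where a list had 5 or fewer genes past the threshold, most of these are named here, after their values were seen.

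Of 13 listed genes for the folding of tubulin (the cofactors Tbca to Tbce, prefoldin subunits and Arl2), 0 passed the threshold in AS. In RC4 Tbcel (1.13) and Tbce (0.79) were higher on the log2 scale and Tbcd (−0.65) and the prefoldin subunit Pfdn4 (−0.80) lower, and in RC8 only Pfdn4 (−0.78) was lower. The median of this list was 0.04, −0.19 and −0.04.

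Among the enzymes that modify tubulin, 0 were higher in AS (background 1.88%) and 2 of 16 lower (11.4%). These were Ttll4 at −0.77 and Ttll7 at −0.88. In RC4, 3 of 17 were higher (background 8.04%) and 5 lower (31.8%). Agbl3, a carboxypeptidase that trims glutamate from tubulin tails, went from 17.0 RPM in NT to 37.4 in RC4 (log2 ratio 1.14, counting error 0.09). Tpgs1, a subunit of the polyglutamylase complex, went from 21.3 to 9.13 RPM (−1.23, 0.12), and Ttll12, of the tyrosine ligase-like family, from 117 to 54.4 RPM (−1.10, 0.05). The others were Ttll11 (1.72) and Vash2 (0.84), which were higher, and Ttll4 (−0.75), Agbl5 (−1.88, with reads in 1 of the 2 RC4 columns) and the deacetylase Hdac6 (−1.17), which were lower. In RC8 Ttll3 (0.66) and Agbl3 (0.64) were higher and Agtpbp1 (−0.79) lower.

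In the list for nucleation of microtubules, 6 of 12 genes were at least 1.5-fold lower in RC4 (background 31.8%) and 0 higher (8.04%). The median log2 ratio was −0.57, where that of all genes was −0.30. Pcnt, the pericentrin of the centrosome, was 65.0 RPM in NT, 38.1 in AS, then 16.7 in RC4 and 45.5 in RC8, with a ratio of −1.96 (counting error 0.08) in RC4. Tubgcp3, a core subunit of the gamma-tubulin ring complex, was 69.2, 54.9, 29.6 and 73.2 RPM, with a ratio of −1.23 (0.07) in RC4. RC4 was the lowest library for both. In AS Cep192 (−1.30), Pcnt (−0.77) and Akap9 (−0.64) were lower, and in RC8 only Tubgcp6 (0.71) was past the threshold.

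Microtubule-associated proteins had the most genes past the threshold in AS, with 8 of 20 lower (background 11.4%) and 0 higher (1.88%). Their median was −0.31, where that of all genes was −0.04. Map1a, which binds along microtubules, went from 32.1 RPM in NT to 9.09 in AS (log2 ratio −1.82, counting error 0.11). Map1b was 58.0 RPM in NT, 27.4 in AS, then 147 in RC4 and 75.2 in RC8. It was thus the lowest in AS (−1.08, 0.07) and the highest in RC4 (1.30, 0.05). Camsap2, which binds minus ends, was 46.6 RPM in NT and 20.8 in AS (−1.16, 0.08). In RC4 Map1b and Map6 (0.89) were higher and Map1s (−0.65), Mapre3 (−0.63), Clasp1 (−0.96) and Ckap5 (−1.06) lower. The Mapre3 value rests on 108 reads in NT and 71 in RC4, with a counting error of 0.22. In RC8 Map1a (0.65), Map1s (0.63), Map1lc3a (0.65) and Map6 (0.83) were higher and 0 lower.

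Of the genes that sever or depolymerise microtubules, 5 of 9 were lower in RC4 (background 31.8%). Fignl1, of the family of severing ATPases, went from 49.5 RPM in NT to 11.2 in RC4 (log2 ratio −2.14, counting error 0.10). Also lower were the mitotic kinesins Kif2c (−3.37) and Kif18a (−1.94) and the katanin gene Katnal1 (−0.65). In AS Kif2a (−0.59) was lower, and in RC8 Kif2c (−0.67) and Kif24 (−0.70) were lower.

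**Figure D5:**
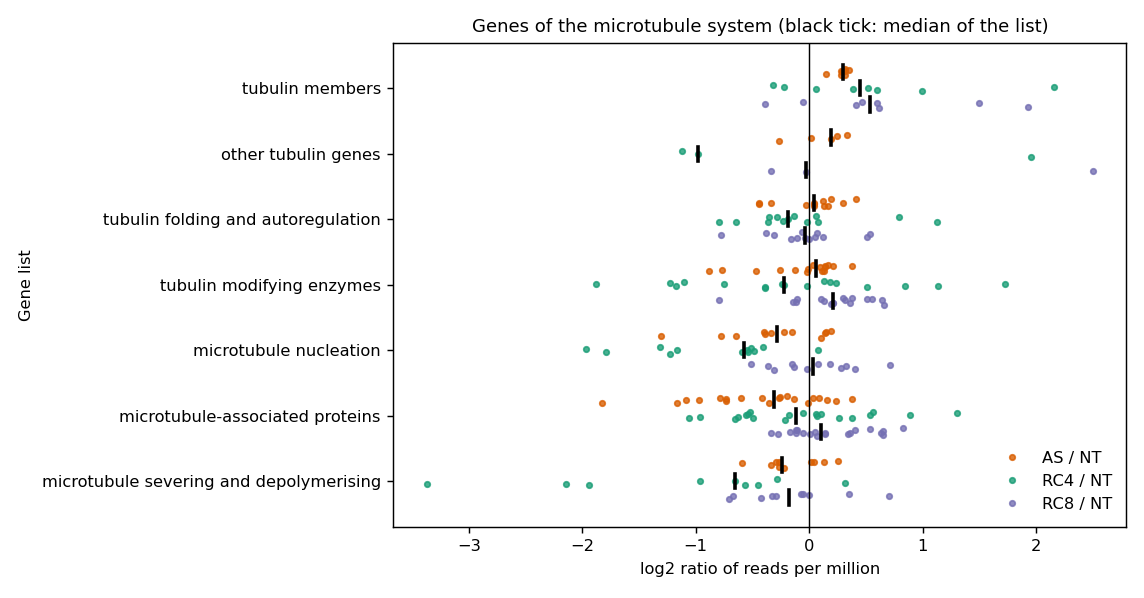
The log2 ratio of RPM to NT for the 8 tubulin genes, the other tubulin genes and the 5 lists of the microtubule system, with 1 point per gene and comparison (AS, RC4, RC8) and a black tick at the median of each list. The ticks of the tubulin genes lie at 0.30, 0.45 and 0.53, and those of the nucleation list at −0.28, −0.57 and 0.03. The points of Tubb3 use the summed columns, 1 of which is 0 in NT.

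Genes with a time course like the summed tubulin level were named by the smallest Euclidean distance of their 3 log2 ratios to it, over 7806 genes with at least 200 reads in every library. They were Fastkd2, Ndufb8, Mrps31, Comtd1 and the gene listed as ENSMUSG00000090723, at distances of 0.02 to 0.05. Fastkd2 had log2 ratios of 0.26, 0.03 and 0.11, against 0.27, 0.03 and 0.09 for the tubulin sum. Measured the same way, the tubulin genes were not each other's nearest neighbours. Tuba4a and Tubb6 were the closest pair, at a distance of 0.13, followed by Tuba1c and Tubb6 at 0.17, whereas Tubb2a and Tubb2b were 1.25 apart.

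Promoters, 250 bases before to 50 bases after the start, were found in RefSeq (GRCm38.p6) for 6 of the 8 genes. On either strand, TATAAA was present in Tubb2a alone (13.6% of all promoters), GGGCGG in 5 genes (35.7%) and CCAAT in Tuba1a, Tuba1c and Tubb5 (37.4%). The heat shock element letters TTCNNGAA were present in Tuba1c and Tubb5 (8.52%) and its other form GAANNTTC in 0 of the 6 (7.86%), and the antioxidant response element letters TGACNNNGC in Tuba1a and Tuba1c (12.4%). Overlaps between motifs were not removed.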

How the data were processed

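Reads had been cleaned by the authors with bbmap before they were mapped with STAR (2.5.2a in the submitters' processing notes) to mm9, allowing up to 20 places per read. MAAPER had been run with PolyA_DB v3 on genes with at least 50 reads, at a PAS proportion of 5%. Read counts per gene, in 2 columns per library, and the fraction of a gene's reads at each PAS were deposited by the authors without further normalization, in 3 pairs of tables that share NT. The deposited P values and the RED and RLD scores, which are the authors' own comparisons, were not used. The 4 QuantSeq REV libraries were not analysed here.

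The 2 columns of a library agreed within sampling noise over all genes with reads in both (chi-square per degree of freedom 0.97 to 1.03) and were added as 1 sample. In 43 to 93 genes per library, 1 column was 0. Among the 32 values of the tubulin genes, 3 differed between columns by more than the 95% limit of counting error. RPM were computed per table, with exact 95% Poisson intervals, and the NT value is that of the AS table unless a ratio is given. Log2 ratios and RED have a counting error from the read numbers, and shares have 95% Wilson intervals. In data simulated for each comparison with Poisson counting noise only, 100% of 200 genes changed 2-fold passed the 1.5-fold threshold. These genes had at least 200 reads in NT, so this outcome follows from the settings. No variation between libraries was simulated, so the result does not show how reliable a call from 1 library is. Sequences and annotation were read from mm9 (NCBIM37, GENCODE vM1). Python 3.11.15, numpy 2.4.6, pandas 2.3.3, scipy 1.17.1, pysam 0.24.0, Biopython 1.88, matplotlib 3.10.9 and, for TMM factors as an alternative scaling, edgeR 4.0.16 (R 4.3.3) were used.

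The tubulin genes, the lists and the tests were chosen with earlier results of these data known. The rule for named genes took the 8 tubulin genes, other tubulin superfamily genes, the up to 3 highest and 3 lowest genes past 2-fold in each list with at least 200 reads in both libraries, Hmox1, Hspa1a (not listed) and Hspa1b, and the 5 genes nearest to the tubulin sum. Other genes of the lists past 1.5-fold were named after their values were seen. The values of 1 gene of the lists are not reported here. Alternatives were other scalings, single columns, NT from 1 table, other thresholds, a minimum of 200 reads, other sets of genes, and PASs merged or restricted to the last exon.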

Additional observations from a re-analysis of the deposited data

Results flagged for a closer look

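Some ratios to NT changed sign between AS and the recovery libraries by more than their counting intervals. The difference was not tested, since each condition had 1 library. For Tuba1a the log2 ratios were 0.29 in AS, then 0.06 in RC4 and −0.06 in RC8. For Tuba1b they were 0.28, −0.32 and −0.39. For Tubb5 they were 0.15, −0.22 and 0.42. The sign for Tubb5 in RC4 depended on the scale, at 0.077 with the median ratio and 0.035 with TMM factors. On those scales Tuba1b in RC4 was −0.017 and −0.059.

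The RED of 3 pairs of PASs also changed sign between treated libraries by more than the counting intervals. The RED of Tubb2b was 2.90 in AS, then −0.99 in RC4 and 3.13 in RC8. That of Tubb2a was −0.51, −0.49 and 0.32. For the distal over the middle PAS of Tubb5 it was 0.26, −0.42 and 0.62.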

How the results depend on the processing

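Scaling to typical genes raised the RC4 ratios by 0.26 (edgeR TMM) or 0.30 (median ratio) on the log2 scale. With it, 5 tubulin genes were higher in RC4 under either scaling, and Tubb5 in RC4 turned to 0.077 (median ratio) and 0.035 (TMM). In RC8, 2 genes were higher with TMM and 2 with the second count column alone. At 2-fold, 1 gene was higher in RC4 and 2 in RC8. The summed tubulin level was 0.33 (median ratio), 0.31 (TMM), 0.26 (read numbers of the study) and 0.25 (without Tuba1b) in AS. In RC4 it was 0.33, 0.29, 0.0084 and 0.28 under the same alternatives, and it turned to −0.0045 with Tubb3 and Tubb4b included. In RC8 it was 0.053 with TMM, 0.11 with the read numbers of the study and 0.40 without Tuba1b.

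For PASs, a threshold of 5 percentage points called 2 genes in AS and 2 in RC4, and one of 20 called 1 in RC8. The shares of all genes at these thresholds were not computed, so the counts have no background. The median largest change over genes with more than 1 PAS in the 3′-most exon was 4.2 points in AS and 6.2 in RC4. A change of 5 points was thus below that of the median gene in RC4. With PASs under 300 nt apart merged, 0 genes were called in AS and 0 in RC8, because the PASs of Tubb2b, and the proximal and middle PASs of Tubb5, are then joined. For the microtubule lists at 2-fold, 4 genes were lower in AS. RC4 had 4 higher (background 3.69%) and 13 lower, and RC8 had 0 higher (background 2.97%) and 0 lower. The share of all genes at least 2-fold lower is not given here, so these counts of lower genes have no background. At 1.5-fold with the median ratio, 12 list genes were higher in RC4, where 15.0% of all genes were higher relative to the median gene. Of 144 ratios of single genes under these alternatives, 95 moved by less than their 95% counting interval, 47 by more and 2 changed sign, both for Tubb5 in RC4. The 95 include the ratios with NT from the AS table. That setting leaves the AS ratios unchanged by construction and can hardly move the others. With 1 library per condition, neither leaving out a replicate nor any test was possible. No paired analysis was possible because the groups have 1 library each.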
